A study of Mus musculus with 32 samples.

Results

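Genes for microtubule motors, tubulins, microtubule-associated proteins, neurofilaments and their regulators were examined in mouse brain after traumatic brain injury (TBI). Members were rows of the deposited count table chosen by symbol. The symbols begin with Dync, Dynl, Dctn, Map1, Map6, Stmn or Tppp, or with Kif or Klc and a digit. Those that begin with Tuba, Tubb or Tubg and then a digit or b were also taken. Map4, Mapt, Nefh and Nefl were taken by name, and Map2 was sought but is not listed. The members number 38 of the 5582 genes listed. Microtubules are polymers of alpha- and beta-tubulin that run the length of axons and dendrites. Kinesins walk mainly toward the growing end and carry vesicles and organelles outward, cytoplasmic dynein with dynactin carries cargo back to the cell body, and tau and other associated proteins bind and stabilise the lattice. Neurofilaments are the intermediate filaments of neurons and set the calibre of large axons.

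All animals were C57BL/6 mice in which targeted replacement had put human APOE4 (APOE4+/+) or human APOE3 (APOE3+/+) in place of the mouse gene, so no group carried mouse Apoe. All received anaesthesia and a craniotomy of 4.5 mm over the left parietal cortex. The TBI groups then received 1 cortical impact with a 3.0 mm tip driven 1.0 mm deep, and the sham groups received none. RNA came from cortex and hippocampus of the injury site, frozen together on day 14; the labels state no age. The groups held 8 APOE4 TBI, 7 APOE4 sham, 8 APOE3 TBI and 7 APOE3 sham animals, and 2 further libraries whose labels disagree on the group were left out.

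The table lists genes that passed the authors' own comparison of TBI with sham in the same animals: no p-value for that contrast in the authors' deposited table exceeds 0.0502. Injury calls below are therefore descriptions. The selection did not use the genotype or the interaction. Counts over the listed genes summed to 2262242 to 8606717 per library, with 16 shallow libraries of at most 3595246 and 16 deep ones of at least 4648345, and both kinds in every group. Levels are CPM, counts scaled by TMM and set to a common total over these listed genes, so they are relative to the list and are not shares of a whole library. A filter on low counts kept 5371 genes and 36 of the 38 members. Each adjusted p is that of edgeR's quasi-likelihood test with Benjamini-Hochberg adjustment over all 5371 genes, with 0.05 as the threshold, and differences are on the log2 scale ± SE.

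After injury 32 of the 36 tested members fell and 4 rose. This count says little by itself, because 94.1% of all tested genes passed the same threshold, 45.9% as lower and 48.2% as higher. The median log2 difference of the members was -0.17, beside 0.10 for all tested genes and -0.19 for the tested genes that were lower. The falls were small: none of the 36 members changed by 1.5-fold, which 18.7% of all tested genes did, and 6 fell by at least 0.3 on the log2 scale. For no member did all 16 TBI animals lie below all 14 shams, beside 0.596% of genes, or above them, beside 5.59%. All 36 had the sign of the coefficient in the authors' deposited table. With total-count scaling in place of TMM the median of all genes shifted upward by 0.09 and the sign of no member changed. Called higher were 4 members and lower 18, beside 51.9% and 22.1% of all genes. The falls of Dctn1, Dync1i1, Dync1li1, Kif1bp, Kif3a, Kif3b, Klc1, Map1lc3a, Map4, Stmn1, Stmn3, Tuba8, Tubb4a and Tubg2 did not pass then.

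**Figure D1:**
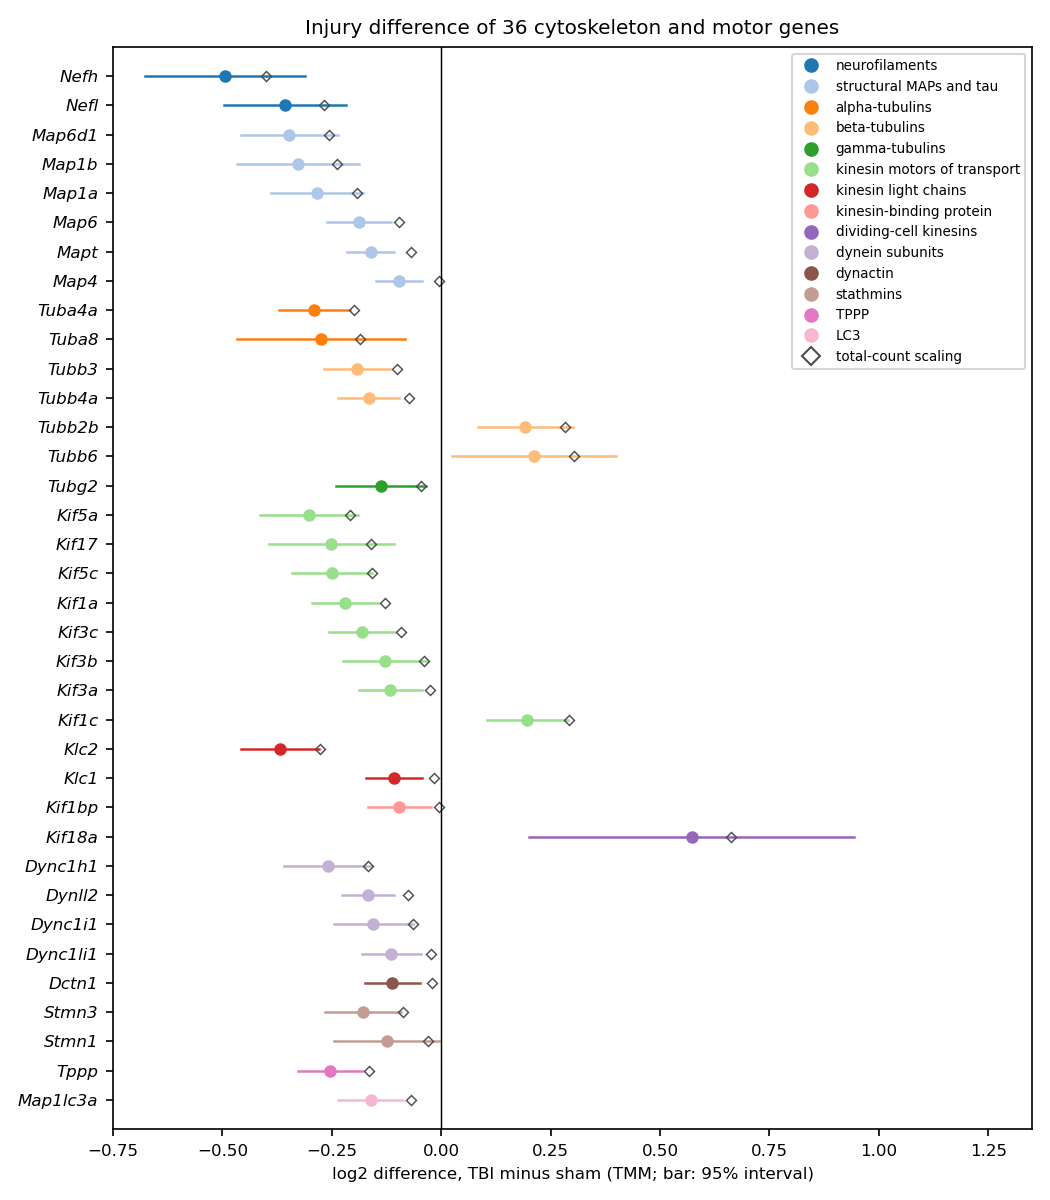
Log2 difference of TBI minus sham for each tested gene, grouped by role (horizontal axis, log2 scale). Filled points are TMM-scaled estimates with 95% intervals from 16 TBI and 14 sham animals, and open diamonds are estimates with total-count scaling. The 32 genes left of 0 stay left of 0 with either scaling, and Nefh lies farthest left at -0.49.

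Nefh, the heavy neurofilament subunit, had the largest fall of the members, with a lowest, median and highest level of 83.6, 93.9 and 186 CPM in TBI animals, against 128, 151 and 188 CPM in sham animals. Of the TBI animals 14 of 16 lay below the lowest sham; the remaining ones, both APOE4, lay within the sham range. The difference was -0.49 ± 0.09 (edgeR, adjusted p = 1.73e-05). Nefl, the light subunit on which the filament is built, had a lowest, median and highest level of 337, 505 and 712 CPM in TBI animals, against 600.1, 672 and 780.0 CPM in shams. Here 12 of 16 TBI animals were under every sham, and the difference was -0.36 ± 0.07 (edgeR, adjusted p = 3.43e-05). The other neuronal intermediate filament genes, which are no members, fell in the same comparison, with differences of -0.61 ± 0.07 for Nefm, the medium subunit, and -0.37 ± 0.06 for Ina, alpha-internexin (edgeR, adjusted p = 1.51e-08 and 1.14e-06). The filament genes of glia stood on the other side, with Gfap at 2.32 ± 0.10 and Vim at 2.42 ± 0.14.

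All 6 structural microtubule-associated proteins fell, by 0.10 to 0.35 on the log2 scale. With total-count scaling Map4 (-0.005) did not pass the threshold and the others did. Map6d1, a relative of the cold-stable tubule protein Map6, had a lowest, median and highest level of 62.4, 92.2 and 105 CPM in TBI animals, against 98.3, 117 and 136 CPM in shams. The groups overlapped narrowly, with 12 of 16 TBI animals under every sham, and the difference was -0.35 ± 0.05 (edgeR, adjusted p = 1.83e-06). Map1b, which acts in growing axons, averaged 2136 ± 316 CPM in TBI animals and 2682 ± 327 CPM in shams (SD, n = 16 and 14), with a difference of -0.33 ± 0.07 (edgeR, adjusted p = 0.0001). Its close relative of mature dendrites, Map1a, differed by -0.28 ± 0.05. Mapt, which encodes tau, had a lowest, median and highest level of 951, 1122 and 1185 CPM in TBI animals, against 1159, 1239 and 1313 CPM in shams. The tau gene differed by -0.16 ± 0.03 (edgeR, adjusted p = 3.69e-06), and 12 of 16 TBI animals were below the lowest sham. Map6 itself differed by -0.19 ± 0.04, and the widely expressed Map4 by -0.10 ± 0.03.

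**Figure D2:**
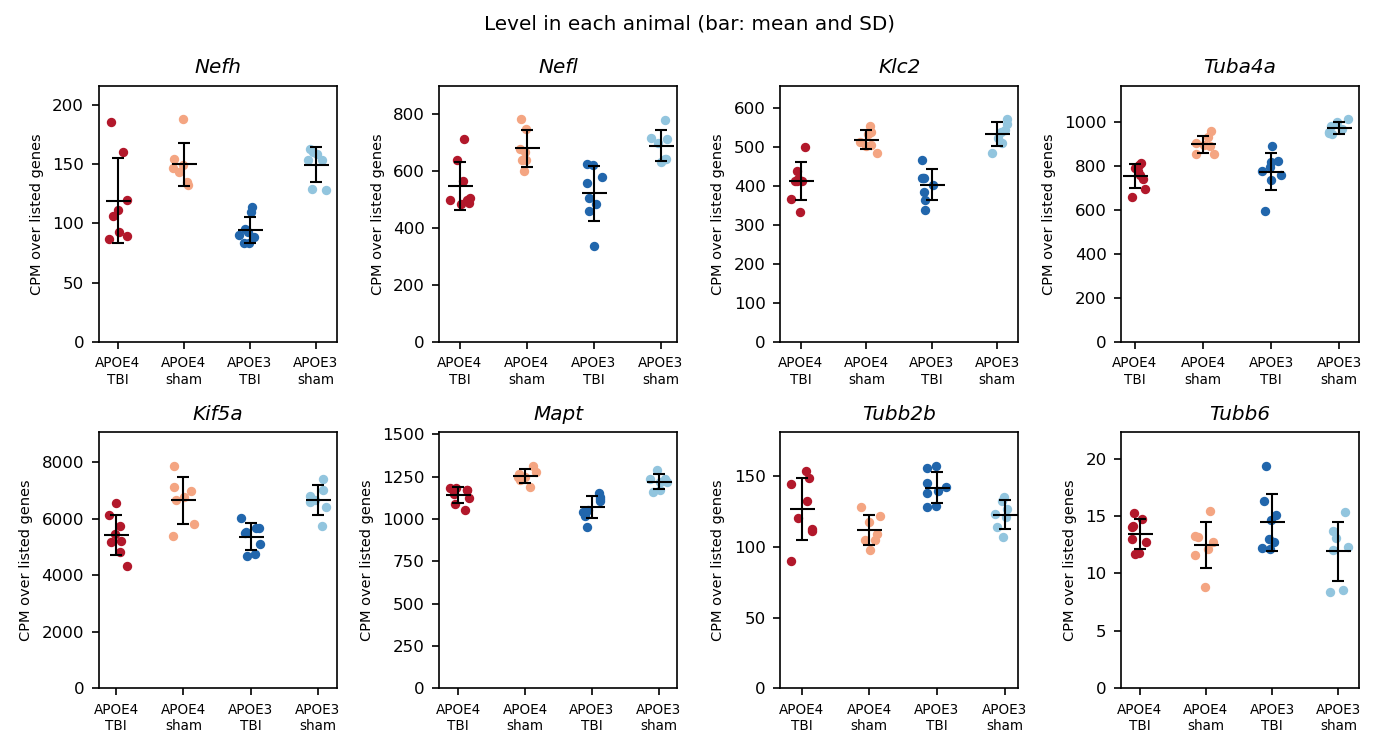
Level of 8 genes in each animal (vertical axes, CPM over the listed genes, from 0), with the mean and SD of each group as bars; groups run APOE4 TBI, APOE4 sham, APOE3 TBI, APOE3 sham. For Tuba4a and Mapt every TBI animal lies below every sham of its own genotype, whereas for Tubb2b and Tubb6 the TBI groups sit higher and overlap the shams.

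The tubulin genes divided. Tuba4a, an alpha-tubulin that differs from most others in lacking the encoded C-terminal tyrosine, had a lowest, median and highest level of 598, 778 and 894 CPM in TBI animals, against 854, 948 and 1013 CPM in shams. It lay under every sham in 15 of 16 TBI animals and differed by -0.29 ± 0.04 (edgeR, adjusted p = 1.92e-07). Tuba8, a divergent and rare alpha-tubulin, differed by -0.27 ± 0.09 (edgeR, adjusted p = 0.00862) with wide overlap. Of the beta-tubulins, Tubb3, the neuron-specific form, fell to 599 ± 74.6 CPM in TBI animals, against 684 ± 51.0 CPM in shams (edgeR, -0.19 ± 0.04, adjusted p = 3.6e-05). Tubb4a, the most abundant of the listed beta-tubulins per kilobase, differed by -0.17 ± 0.03.

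The other 2 beta-tubulin genes rose. Tubb2b, a beta-tubulin of developing neurons and of glia, had a lowest, median and highest level of 89.8, 139 and 157 CPM in TBI animals, against 97.6, 119 and 135 CPM in shams, and 9 of 16 TBI animals exceeded every sham (0.19 ± 0.05; edgeR, adjusted p = 0.00189). It has a near-identical copy in Tubb2a, so how reads were divided between them is uncertain. Tubb6, a beta-tubulin of non-neuronal cells, had 11.7, 13.5 and 19.4 CPM as its lowest, median and highest level in TBI animals, against 8.42, 12.6 and 15.5 CPM in shams. Its groups overlapped almost wholly and its difference of 0.21 ± 0.09 was close to the threshold (edgeR, adjusted p = 0.0319). Set per kilobase of exon, Tubb2b made up 5.88 ± 1.14% of the 4 listed beta-tubulins in TBI animals and 4.59 ± 0.545% in shams (SD, n = 16 and 14). Tubb4a held 61.8 ± 1.73% in TBI animals and 62.3 ± 1.58% in shams. Tubg2, a gamma-tubulin, the form that nucleates new microtubules, differed by -0.14 ± 0.05.

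Among the 8 kinesin motors of transport 7 fell and 1 rose. The conventional neuronal kinesin heavy chain Kif5a had the highest level per kilobase of all members in shams. It had a lowest, median and highest level of 4342, 5495 and 6578 CPM in TBI animals, against 5383, 6710.4 and 7876 CPM in shams. Of the TBI animals 7 of 16 lay below every sham and the others within the sham range, and the difference was -0.30 ± 0.06 (edgeR, adjusted p = 1.87e-05). Its relative Kif5c differed by -0.25 ± 0.05, and Kif1a, the motor of synaptic vesicle precursors, by -0.22 ± 0.04. Kif17, a dendritic motor of the kinesin-2 family, differed by -0.25 ± 0.07 (edgeR, adjusted p = 0.00189). The heterotrimeric kinesin-2 subunits fell too, with -0.18 ± 0.04 for Kif3c, -0.13 ± 0.05 for Kif3b and -0.12 ± 0.04 for Kif3a. Kif1c, a kinesin-3 motor found in many tissues, moved the other way: its lowest, median and highest level was 200.1, 235 and 301 CPM in TBI animals, against 187, 214 and 229 CPM in shams, and 9 of 16 TBI animals exceeded every sham (0.20 ± 0.05; edgeR, adjusted p = 0.000329).

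The kinesin light chains, which couple conventional kinesin to its cargo, fell unequally. Klc2 had a lowest, median and highest level of 334, 415 and 502 CPM in TBI animals, against 484, 529 and 572 CPM in shams, and 15 of 16 TBI animals were below every sham. It had the smallest adjusted p of the members (-0.37 ± 0.04; edgeR, adjusted p = 1.35e-08). Klc1 differed by -0.11 ± 0.03 only (edgeR, adjusted p = 0.00277). Per kilobase, Klc2 made up 25.3% of the 2 light chains in TBI animals, where the lowest and highest were 22.9% and 27.4%, and 28.9% in shams, where the lowest and highest were 26.7% and 31.0%. Kif1bp, the kinesin-binding protein that holds some kinesins off the microtubule, differed by -0.10 ± 0.04 (edgeR, adjusted p = 0.0136).

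Promoter sequence was available for 26 members, in 29 windows of 250 bases before an annotated start, from RefSeq (GRCm38.p6). The palindrome TGACGTCA, the full cAMP response element, was found in 3 of the 29 windows (10.3%), those of Kif5c, Kif17 and Klc1. It was in 2.18% of windows of all listed genes and 1.55% of all windows. These 3 are shown because they share the element. Capitals mark it, and every window is on the plus strand. The Klc1 window lies inside the gene, which begins at base 111758435, and so precedes a later annotated start.
Kif5c, chr2:49619036-49619285: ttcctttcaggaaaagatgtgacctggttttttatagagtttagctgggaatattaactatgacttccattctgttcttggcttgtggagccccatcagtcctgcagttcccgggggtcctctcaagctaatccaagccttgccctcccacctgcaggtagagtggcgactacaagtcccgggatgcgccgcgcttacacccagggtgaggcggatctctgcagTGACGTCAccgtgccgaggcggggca
Kif17, chr4:138262001-138262250: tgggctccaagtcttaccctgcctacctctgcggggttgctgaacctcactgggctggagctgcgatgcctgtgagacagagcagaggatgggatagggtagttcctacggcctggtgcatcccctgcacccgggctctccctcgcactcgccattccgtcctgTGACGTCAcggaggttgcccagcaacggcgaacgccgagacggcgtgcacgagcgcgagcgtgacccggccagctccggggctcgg
Klc1, chr12:111758618-111758867: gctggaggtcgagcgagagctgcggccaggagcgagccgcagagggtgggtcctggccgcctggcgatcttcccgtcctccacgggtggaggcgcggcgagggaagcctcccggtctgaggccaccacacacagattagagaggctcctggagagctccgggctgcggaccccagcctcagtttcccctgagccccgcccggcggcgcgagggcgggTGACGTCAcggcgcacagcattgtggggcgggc
The element begins 26 bases before the start in Kif5c, 33 in Klc1 and 86 in Kif17. Other motifs were searched on both strands: GGGCGG, the GC box, was in 14 windows (48.3%, beside 55.5% of listed genes and 32.7% of all windows), TATAAA in 3 (10.3%, beside 7.14% and 12.4%) and the palindrome CACGTG, an E-box, in 2 (6.90%, beside 7.29% and 6.02%). A match of letters is a description of these windows and not evidence of binding.

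Dynein and dynactin genes were lower with TMM scaling. This held for all 4 tested subunits of the dynein family and for Dctn1, the 1 dynactin gene among the members. With total-count scaling Dync1h1 (-0.17) and Dynll2 (-0.08) stayed past the threshold. Dync1i1 (-0.06), Dync1li1 (-0.02) and Dctn1 (-0.02) did not. Dync1h1, the motor-bearing heavy chain, had a lowest, median and highest level of 1017, 1143 and 1397 CPM in TBI animals, against 1181, 1373 and 1949 CPM in shams and differed by -0.26 ± 0.05 (edgeR, adjusted p = 3.67e-05). Dynll2, a light chain that also serves in myosin V, differed by -0.17 ± 0.03, and its level was the least variable of all members among shams, with a coefficient of variation of 2.81%. The intermediate chain Dync1i1 differed by -0.16 ± 0.04, the light intermediate chain Dync1li1 by -0.11 ± 0.03, and Dctn1, the largest subunit of dynactin, by -0.11 ± 0.03. Dynlt1a, another light chain, had too few counts to be tested: 104 over the TBI animals and 122 over the shams, and its near-identical copies leave its counts uncertain.

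The stathmins, which sequester tubulin dimers and promote disassembly, were lower with TMM scaling. The differences were -0.18 ± 0.04 for Stmn3 and -0.12 ± 0.06 for Stmn1, the latter just past the threshold (edgeR, adjusted p = 0.0442). With total-count scaling neither Stmn3 (-0.09) nor Stmn1 (-0.03) passed. Tppp, a microtubule-bundling protein best known from oligodendrocytes, had a lowest, median and highest level of 1090.4, 1348 and 1623 CPM in TBI animals, against 1571, 1613 and 1735 CPM in shams. It was below every sham in 15 of 16 TBI animals and differed by -0.25 ± 0.04 (edgeR, adjusted p = 4.01e-07). Of 14 oligodendrocyte and myelin markers searched 5 were tested, 3 of them higher and 2 lower. Their summed level was 1155 to 2118.7 CPM in TBI animals and 920.1 to 1590.2 CPM in shams. The part of these markers in the fall of Tppp was not tested. Map1lc3a, the LC3 protein of autophagosomes, matched the symbol rule as a relative of the Map1 light chains and differed by -0.16 ± 0.04.

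Kinesins of dividing cells were low. Kif18a, which controls chromosome movement in mitosis, had a lowest, median and highest level of 1.68, 2.96 and 4.35 CPM in TBI animals, against 0.00, 2.01 and 2.94 CPM in shams, and rose by 0.57 ± 0.18 (edgeR, adjusted p = 0.00527). Kif20b, a kinesin of late cell division, did not pass the filter, with 144 counts over the TBI animals and 97 over the shams.

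**Figure D3:**
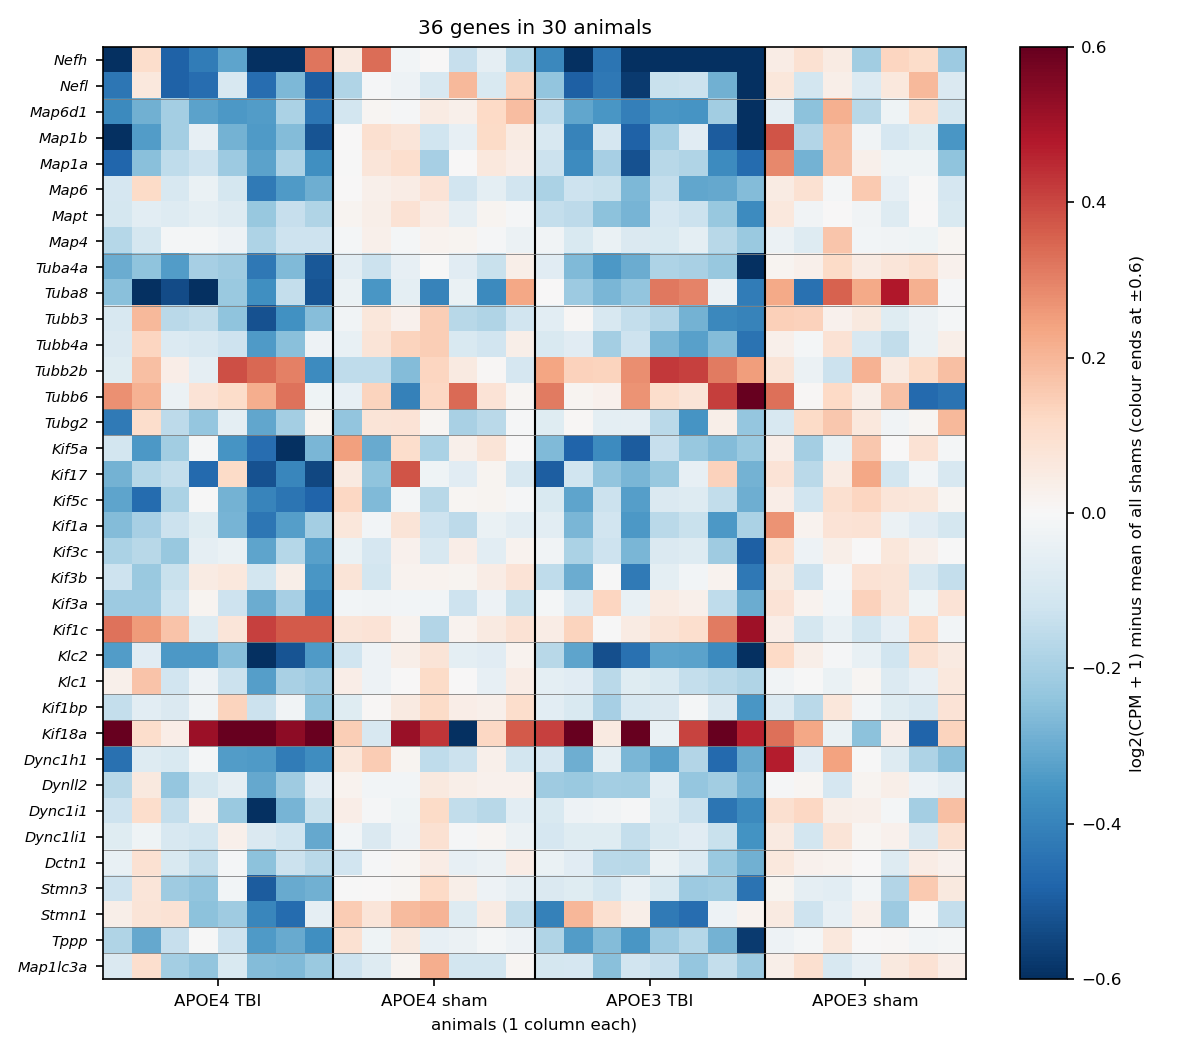
Each row is 1 of the 36 tested genes, ordered by role, and each column 1 of 30 animals; colour gives log2(CPM + 1) minus the mean of all shams, with colour ends at ±0.6. Most rows are blue in both TBI blocks, the rows of Tubb2b, Tubb6, Kif1c and Kif18a are mainly red there, and TBI columns differ in depth of colour.

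Averaged over the 36 genes, log2 level minus the sham mean ran from -0.27 to -0.06 in APOE4 TBI animals and from -0.07 to 0.03 in APOE4 shams. It ran from -0.31 to -0.09 in APOE3 TBI animals and from -0.05 to 0.09 in APOE3 shams. The highest APOE4 TBI animal reached into the range of its shams, and the APOE3 groups did not overlap. Levels per kilobase spanned a wide range in shams, with Kif5a at 953 ± 95.5 CPM per kilobase, Tubb4a at 698 ± 45.1 and Dynll2 at 536 ± 15.1 at the top (mean ± SD, n = 14). Tuba8 at 8.59 ± 1.86 and Tubb6 at 5.01 ± 0.922 CPM per kilobase were near the bottom, above Kif18a.

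Markers of several cell types moved with these genes, and in bulk tissue fewer cells of a type and less RNA per cell cannot be told apart. Only markers among the genes selected on the injury contrast could be tested, and 45.9% of all tested genes were lower and 48.2% higher. All of the 9 astrocyte and 12 microglia and macrophage markers searched were listed. Of 12 neuronal markers searched 11 were tested, and all 11 were lower after injury (median -0.24, and 8 of 11 with total-count scaling). Their summed levels were 21146 to 28514 CPM in TBI animals and 27972 to 32052 CPM in shams. All 9 astrocyte markers were higher (median 0.52), with 14437 to 21490 CPM in TBI animals and 11778 to 14066 CPM in shams. All 12 markers of microglia and macrophages were higher (median 1.57), with 1214 to 2582 CPM in TBI animals and 659 to 873 CPM in shams. Of 16 dividing-cell markers searched 4 were tested and all 4 were higher, with a median of 0.79. Their sum was 17.8 to 48.2 CPM in TBI animals and 12.1 to 24.9 CPM in shams, which stands beside Kif18a. The 6 tested endothelial and pericyte markers, of 13 searched, were all higher. Both tested oligodendrocyte precursor markers, of 8 searched, were higher, as were 4 of 5 tested ependymal ones, of 16 searched. Of 14 thalamic and striatal genes searched 4 were listed, 2 higher and 1 lower. No choroid plexus or blood marker was among the listed genes. No marker summed here was at 0 in all animals. The part of these markers in the falls and rises above was not tested.

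Genes for proteins that work with these members were counted against the same background, 45.9% of all tested genes lower and 48.2% higher after injury. A gene could enter only if it was among those selected on the injury contrast. That held for 16 of 25 cargo adaptors, 8 of 19 dynein cofactors and 14 of 34 end-binding, severing and lattice proteins. It held for 8 of 11 spectrin, ankyrin and adducin genes and 14 of 31 tubulin-modifying enzymes. Of the axon growth genes 5 of 13 were listed, of the gamma-tubulin ring complex 2 of 11 and of the folding cofactors 2 of 21. Of 16 tested kinesin cargo adaptors 14 fell and 1 rose, with a median of -0.16: Clstn3 and Clstn1, calsyntenins that bind light chains, fell with differences of -0.29 ± 0.04 and -0.26 ± 0.03, while the huntingtin-associated Hap1 rose by 0.34 ± 0.07. Of 7 tested dynein cofactors 6 fell (median -0.17), among them the dynein regulator Ndel1 at -0.25 ± 0.04. Its relative Nde1 rose by 0.36 ± 0.05. The falls in this list include the dynactin subunits Actr1a (-0.07), Actr1b (-0.20) and Actr10 (-0.13). Of 14 end-binding, severing and lattice proteins 11 fell and 2 rose (median -0.14), with the largest fall in Mtcl1, a microtubule crosslinker, at -0.45 ± 0.06. Of 8 spectrin, ankyrin and adducin genes 7 fell (median -0.28), including Ank3, the organiser of the axon initial segment, at -0.35 ± 0.06, and Add3 rose by 0.47 ± 0.06. The tubulin-modifying enzymes were mixed, with 6 of 14 higher and 8 lower: the glycylase Ttll8 rose by 0.78 ± 0.22 and the deglutamylase Agbl2 by 0.71 ± 0.21. Of the 5 listed axon growth genes 4 rose, led by the injury-induced transcription factor Atf3 at 2.01 ± 0.23. The 2 listed genes of the gamma-tubulin ring complex, Nedd1 and Cdk5rap2, rose by 0.37 ± 0.10 and 0.36 ± 0.09. Of the tubulin folding cofactors only 2 were in the table, Tbcel higher at 0.08 ± 0.03 and Cct7 lower at -0.09 ± 0.04. With total-count scaling, where 22.1% of all genes were lower and 51.9% higher, fewer of these falls passed: 7 of 16 cargo adaptors, 4 of 7 dynein cofactors, 7 of 14 end-binding, severing and lattice proteins, 5 of 8 spectrin, ankyrin and adducin genes and 5 of 14 tubulin-modifying enzymes. This count by list was added after the data had been seen. The signs of Cct7, of Actr1a, an actin-related subunit of dynactin, and of Borcs5, a subunit of the complex that links lysosomes to kinesin, turned under that scaling, and no other gene of these lists changed sign.

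Within APOE4 animals, 1 member rose and 26 fell after injury, beside 64.8% of all tested genes called (33.9% higher and 30.9% lower). Within APOE3 animals, 4 rose and 26 fell, beside 72.3% (38.0% higher and 34.3% lower). The members called in both genotypes numbered 23, with 4 called only in APOE4, 7 only in APOE3 and 2 in neither, a difference in calls that is not a difference between genotypes. With total-count scaling 2 rose and 9 fell in APOE4, beside 43.0% and 12.4% of all genes, and 4 rose and 17 fell in APOE3, beside 45.9% and 16.5%. Every TBI animal lay below every sham of its genotype for 3 members in APOE4, beside 2.64% of all genes, and for 8 members in APOE3, beside 6.78%. For no member did every TBI animal lie above every sham of its genotype, beside 8.97% of genes in APOE4 and 11.8% in APOE3. Tuba4a and Mapt were among both sets, with Map6d1 added in APOE4, and with Klc2, Map1lc3a, Map6, Nefh, Nefl and Tppp added in APOE3. Tuba4a, for example, ran at 658, 769.6 and 814 CPM (lowest, median and highest) in APOE4 TBI animals and at 854, 895 and 959 CPM in APOE4 shams. It ran at 598, 787 and 894 CPM in APOE3 TBI animals and at 945, 967 and 1013 CPM in APOE3 shams.

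**Figure D4:**
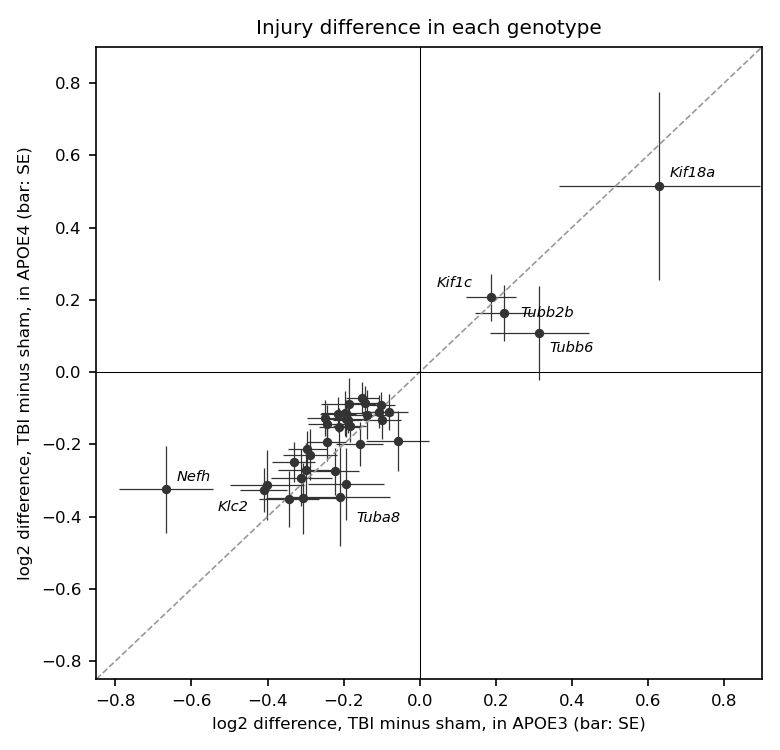
Log2 difference of TBI minus sham in APOE4 (vertical axis) against that in APOE3 (horizontal axis) for the 36 tested genes, with SE bars and a dashed line of equality. Nefh lies farthest from the line, with -0.32 in APOE4 and -0.67 in APOE3, and the bars of most genes cross the line.

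The injury response was tested for a difference between genotypes in an interaction term. No member passed (edgeR, 0 of 36), beside 0.0% of all tested genes, and DESeq2 and limma-voom also called 0 members. At an unadjusted p under 0.05, 0 members and 99 genes (1.84%) lay past that mark. The smallest p of the members was that of Nefh. Its level ran at 86.6, 108 and 186 CPM (lowest, median and highest) in APOE4 TBI animals and at 132, 147 and 188 CPM in APOE4 shams. In APOE3 it ran at 83.6, 91.3 and 113 CPM in TBI animals and at 128, 154 and 163 CPM in shams. Of the APOE4 TBI animals 6 of 8 lay below every APOE4 sham and the others within the sham range, whereas in APOE3 the groups did not overlap. The injury difference was -0.32 ± 0.12 in APOE4 and -0.67 ± 0.12 in APOE3, a difference of 0.34 ± 0.17 with a 95% interval of -0.01 to 0.70 (edgeR, unadjusted p = 0.057, adjusted p = 0.999). Map6 (0.12 ± 0.07) and Tubb4a (0.10 ± 0.07) followed, neither past the threshold. Among members with a lower level after injury the median difference was -0.17 in APOE4 and -0.21 in APOE3. For all tested genes with a lower level it was -0.18 and -0.20. The 95% interval of a member's interaction reached 0.18 to each side at the median.

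APOE4 was then compared with APOE3 over both injury states, on the question whether these genes differ between the genotypes. Any other difference between the APOE4 and APOE3 mice cannot be told apart from the allele itself. Of the 36 members 2 were lower in APOE4 and none higher, beside 2.01% of all tested genes (1.19% higher and 0.819% lower). Tuba8 ran at 9.72, 13.7 and 17.2 CPM (lowest, median and highest) in APOE4 TBI animals and at 13.96, 17.4 and 23.9 CPM in APOE3 TBI animals. It ran at 14.2, 18.2 and 22.6 CPM in APOE4 shams and at 13.7, 22.4 and 26.9 CPM in APOE3 shams. The groups overlapped, with the APOE4 median lower in each injury state. The difference was -0.35 ± 0.09 (95% interval -0.54 to -0.16; edgeR, adjusted p = 0.0468). Kif3a, the motor subunit shared by kinesin-2 complexes and needed for cilia, ran at 369, 415 and 484 CPM in APOE4 TBI animals and at 389.5, 470.2 and 525 CPM in APOE3 TBI animals. It ran at 437, 473 and 474 CPM in APOE4 shams and at 471, 505 and 529 CPM in APOE3 shams. Its groups also overlapped, and the difference was small, -0.13 ± 0.04 (95% interval -0.20 to -0.06; edgeR, adjusted p = 0.0471).

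**Figure D5:**
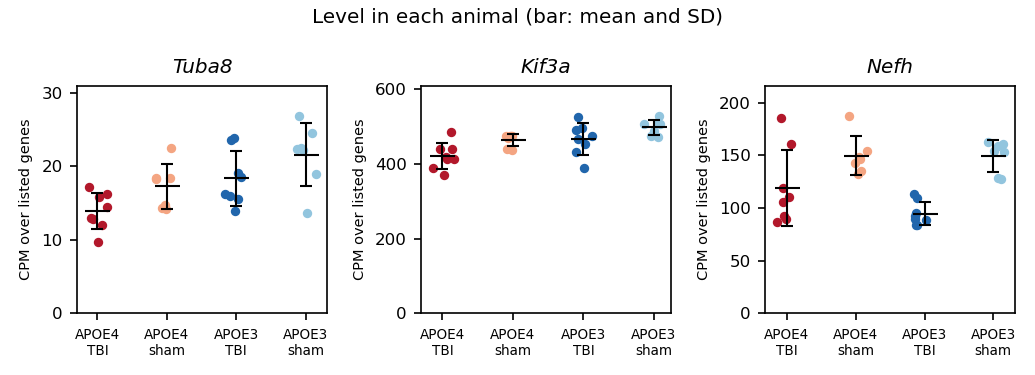
Level of Tuba8, Kif3a and Nefh in each animal (vertical axes, CPM over the listed genes, from 0), with the mean and SD of each group as bars. Tuba8 and Kif3a have lower means in APOE4 than in APOE3 in each injury state, and Nefh has its widest spread in APOE4 TBI.

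Neither genotype call was firm. Both were lost when the disputed libraries were placed by title (edgeR, adjusted p = 0.132 for Tuba8 and 0.153 for Kif3a), when they were placed by source name (0.180 and 0.0563), and when the title letter was left out of the model (0.0549 and 0.0764). Limma-voom kept Kif3a (0.04996) and lost Tuba8 (0.0644), and a fit without the count filter kept Tuba8 (0.0469) and lost Kif3a (0.0560). Within TBI animals 0 members passed, beside 0.447% of all tested genes, and within shams 0, beside 0.168%; DESeq2 and limma-voom also called 0 in each. At an unadjusted p under 0.05 there were 7 members in TBI animals and 2 in shams, beside 11.2% and 5.77% of all genes. Nefh in TBI animals was one of them, higher in APOE4 by 0.33 ± 0.12 (edgeR, adjusted p = 0.253). Tuba8 lies on chromosome 6 and Kif3a on chromosome 11. Within 5 Mb, 0 of 49 tested neighbours of Tuba8 and 1 of 35 of Kif3a (Col23a1) were called by genotype. Around Dync1i1, a member on chromosome 6 that was not called itself, 5 of 15 were. Over whole chromosomes, 14 of 308 tested genes (4.55%) were called on chromosome 6 and 7 of 437 (1.60%) on chromosome 11.

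The animals were also split by the letter F or M in their titles, which the labels do not spell out. Within each genotype every animal with M had a lower animal number than every animal with F. A difference that follows the order of these numbers therefore cannot be told apart from one that follows the letter. This comparison was added after the data had been seen. In animals with F, 6 of 36 members (16.7%) were lower than in animals with M and none was higher (edgeR). The share called equals that of all tested genes, 16.7% (6.59% lower and 10.1% higher). The members called were the neuronal beta-tubulin Tubb3 (-0.22), the dynein heavy chain Dync1h1 (-0.20), Stmn1 (-0.19), Dync1i1 (-0.18), Tubb4a (-0.14) and Map6 (-0.13). The letter was a term of every model unless stated.

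The 250 bases before an annotated start of these genes are given, as those of the members that the genotype comparison turned on. Capitals mark the E-box CACGTG in Tuba8 and the GC box GGGCGG in Kif3a, and both windows are on the plus strand (RefSeq, GRCm38.p6). The Kif3a window lies inside the gene, which begins at base 53565701, and so precedes a later annotated start.
Tuba8, chr6:121210484-121210733: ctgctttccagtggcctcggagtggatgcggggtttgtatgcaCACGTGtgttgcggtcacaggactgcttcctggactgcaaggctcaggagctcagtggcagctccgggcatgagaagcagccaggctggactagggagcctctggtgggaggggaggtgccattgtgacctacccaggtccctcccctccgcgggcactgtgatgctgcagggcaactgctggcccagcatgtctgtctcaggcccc
Kif3a, chr11:53567119-53567368: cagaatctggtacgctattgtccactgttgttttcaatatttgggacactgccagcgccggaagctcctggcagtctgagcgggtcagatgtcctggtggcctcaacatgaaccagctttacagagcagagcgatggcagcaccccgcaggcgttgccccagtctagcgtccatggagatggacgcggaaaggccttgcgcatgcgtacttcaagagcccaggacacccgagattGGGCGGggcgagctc
The Tuba8 window holds 7 CpG dinucleotides at a GC content of 63.6%, and the Kif3a window 15 at 58.8%.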

How the data were processed

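Per the file headers, the deposited table gives unnormalised read counts of each gene in 32 libraries, beside the authors' log2 coefficient and p-value for TBI against sham. Tools named in the submitters' processing notes are edgeR 3.14.0 and Subread 1.5.0, with mm10 as the build. Which step each tool served, the annotation and the strand setting have not been given in the sources used here. Genes had been selected on the injury contrast, so TMM and CPM refer to that list, and column totals are not library depths.

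Tests used edgeR 4.0.16 under R 4.3.3 (filterByExpr, TMM, quasi-likelihood F-tests). Injury and genotype came from an additive model with the title letter M or F. Effects within a genotype or injury state and the interaction came from group means with the same letter. The biological coefficient of variation was 11.5%. Animal numbers separate the libraries, so each counts as 1 animal, and 30 of 32 entered. Alternatives were DESeq2 1.42.0, limma-voom (limma 3.58.1), total-count scaling, no filter, both placements of the 2 disputed libraries, no title letter, depth class as a covariate, and each depth class alone. The fitting was tested on simulated counts.

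The members, gene lists and tests were chosen with earlier results of these data known. Levels are given for the 2 members of each role with the largest injury difference, for Mapt, Tubb3, Nefl, Nefh and Kif5a, and for members called or with the 3 smallest p in each genotype or interaction comparison; up to 4 genes per list could be named. A few further members are given for their role. Names of 13 genes turned into dates were restored from their gene identifiers, and 5557 identifiers matched a RefSeq table (GRCm38.p6). Per-kilobase levels divide CPM by the union of exons in GENCODE M21.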

Additional observations from a re-analysis of the deposited data

Results flagged for a closer look

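A search of 108 groups of 7 or 8 animals for 1 animal far from the others found 7, and chance alone gives about 1 in 20 groups. In APOE4 TBI, replicate 2 had Map1lc3a at 280.8 CPM, with the next at 246 CPM. In APOE4 sham, replicate 4 had Map1lc3a at 304 CPM beside 264 CPM, replicate 3 had Kif17 at 62.3 CPM beside 49.7 CPM, and replicate 2 had Nefh at 188 CPM beside 154 CPM. In APOE3 TBI, replicate 5 had Dynll2 at 1404 CPM beside 1273 CPM, and replicate 8 had Map6d1 low at 62.4 CPM beside 87.8 CPM. In APOE3 sham, replicate 3 had Tppp at 1696 CPM beside 1635 CPM.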

How the results depend on the processing

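The number of members called after injury over both genotypes was 36, and 26 to 36 under the alternatives other than total-count scaling, which gave 22. In APOE4 the count of 27 became 11 with total-count scaling, 16 with the disputed libraries placed by source name, 9 in shallow and 8 in deep libraries alone. In APOE3 the count of 30 became 16 in shallow and 18 in deep libraries alone, where each arm held 3 or 4 animals. By genotype over both injury states the 2 calls became 1 with limma-voom, without the filter and with the depth class, and 0 with the disputed libraries placed by title or by source name, without the title letter, and in shallow or deep libraries alone. The interaction and the genotype comparisons within TBI and within sham called 0 members under every alternative run. Among the 27 members followed through every alternative, the sign turned for 6 small estimates: with total-count scaling Kif1bp (0.0073) and Stmn1 (0.037) in APOE3, and Dctn1 (0.022) and Tubg2 (0.0049) in APOE4; with the disputed libraries placed by source name Tubg2 (0.0074) in APOE4; and in shallow libraries alone Tubb6 (-0.042) in APOE3. Of the other members, Dync1li1 (0.0061) and Map4 (0.0015) also turned in APOE4 with total-count scaling. The cause was not tested, except that fewer animals entered the fits of 1 depth class. Of 927 values for single members, 780 kept direction and side of the threshold, 131 lost the threshold and 10 gained it. No paired analysis was possible because the labels give no replicate number shared between groups. Kif18a, at a median of 2.01 CPM in shams, is limited most by its counts.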

Other observations

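The 2 libraries with disputed labels are described by their values alone. E2073, titled as sham and described as TBI, had an average of -0.07 on the log2 scale over the 36 members relative to the sham mean. It had Nefh at 169.7, Klc2 at 591 and Tuba4a at 1161 CPM, and 879 CPM summed over 12 microglia and macrophage markers. F1372, titled as APOE3 and described as APOE4, averaged -0.01. It had Nefh at 136, Klc2 at 547 and Tuba4a at 906 CPM, and 775 CPM over those markers. The average ran from -0.31 to -0.06 in TBI animals and from -0.07 to 0.09 in shams. TBI animals ran at 83.6 to 186 CPM for Nefh, 334 to 502 for Klc2, 598 to 894 for Tuba4a and 1214 to 2582 for the marker sum. Shams ran at 128 to 188, 484 to 572, 854 to 1013 and 659 to 873 CPM. Among the partner genes, the glutamylase Ttll5 was the only tested list gene called between genotypes, higher in APOE4 by 0.18 (edgeR, adjusted p = 0.0379).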
